A study of Mus musculus with 5 samples.

Results

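The matrix metalloproteinases (MMPs) and their tissue inhibitors (TIMPs) were followed in mouse skeletal muscle mesenchymal cells before and after bone injury. The 10 genes were listed by name as members of these families, with earlier results of these data known. They were the proteases Mmp2, Mmp3, Mmp9, Mmp13, Mmp14, Mmp19 and Mmp23 and the inhibitors Timp1, Timp2 and Timp3. These are 10 of the 31055 genes counted. All 10 had a mean level of at least 1 CPM over the libraries (counts of unique molecular identifiers or UMIs, each a counted transcript, per 1000000 UMIs of the library) and entered every comparison.

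The study asked how mesenchymal progenitors of muscle take part in bone repair. Single-cell RNA sequencing (scRNAseq) covered GFP+ cells sorted from hindlimb muscles of Prx1Cre;mTmG mice (C57Bl/6), in which Cre active in the limb bud mesenchyme leaves a lasting green label in all descendants, so the label marks origin and not current expression. The 5 libraries were d0 (uninjured), d3 and d5 post-fracture, after a non-stabilized tibial fracture, and d3 and d5 post-polytrauma, after a fracture combined with compression of the muscles around it. Each library pooled 2 mice of the same genotype and each condition had 1 library, so no difference between conditions has a replicate check and no p-value is given.

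After filtering, 29831 cells remained, from 1468 at d5 post-fracture to 11941 at d5 post-polytrauma, with median depths from 3640 UMIs per cell at d0 to 34949 at d5 post-fracture. The labels of a pair of libraries are exchanged here: the library labelled d3 post-polytrauma, with 2001 barcodes, was used as d5 post-fracture, and the library labelled d5 post-fracture, with 6915 barcodes, as d3 post-polytrauma. This follows the cell numbers in the source data of the study, and the values with the labels as deposited are given with the limits at the end. The d0 and d3 libraries shared 405 to 525 cell barcodes with each other and at most 3 with either d5 library, while the pair of d5 libraries shared 944, so day and barcode set cannot be told apart between d3 and d5. Among the retained cells 635 carried a barcode listed for another library without clearly more UMIs here, and all 2-fold differences of the 10 genes held without them. The summed FAP/MP markers (fibro-adipogenic and mesenchymal progenitors: Prrx1, Cxcl12, Pdgfra, Ly6a, Cd34) stood at 933 to 2332 CPM, against 14.3 to 101 CPM for 7 hematopoietic, 3.64 to 48.8 for 5 endothelial and 0.287 to 3.72 for 5 myogenic markers, with Pax7 and Myf5 at 0 at d0 and in both post-fracture libraries.

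MMPs are zinc-dependent proteases that are made as inactive proenzymes and cleave collagens, proteoglycans and other proteins outside the cell. TIMPs occupy the active site of the mature enzymes, so the activity in a tissue depends on both sides and on proenzyme activation, which transcript counts do not show. In a healing fracture, proteases of this family open the cartilage callus for vessels and bone and remodel the fibrous tissue around it.

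The promoters of Mmp3, Mmp13, Mmp14 and Timp1 are shown as examples: Mmp3 and Mmp13 were lower post-polytrauma than post-fracture at d5, Mmp14 was higher at d5 than at d3 in both injuries, and Timp1 differed most from d0. Each is the stretch of 220 bases before the gene start in RefSeq (GRCm38.p6), written on the strand of the gene: chr9:7445602-7445821 (+), chr9:7272294-7272513 (+), chr14:54431378-54431597 (+) and chrX:20869946-20870165 (+). Capitals mark matches to the AP-1 motif TGANTCA or to the ETS core AGGAAG, searched on both strands without overlaps between them.
Mmp3: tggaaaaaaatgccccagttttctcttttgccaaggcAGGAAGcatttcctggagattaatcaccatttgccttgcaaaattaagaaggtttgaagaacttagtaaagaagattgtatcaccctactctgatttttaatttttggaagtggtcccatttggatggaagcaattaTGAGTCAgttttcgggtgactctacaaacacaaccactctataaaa
Mmp13: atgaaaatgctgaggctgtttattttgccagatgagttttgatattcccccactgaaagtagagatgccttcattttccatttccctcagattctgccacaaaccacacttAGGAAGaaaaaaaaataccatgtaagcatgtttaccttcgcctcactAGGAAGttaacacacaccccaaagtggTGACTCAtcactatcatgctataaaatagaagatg
Mmp14: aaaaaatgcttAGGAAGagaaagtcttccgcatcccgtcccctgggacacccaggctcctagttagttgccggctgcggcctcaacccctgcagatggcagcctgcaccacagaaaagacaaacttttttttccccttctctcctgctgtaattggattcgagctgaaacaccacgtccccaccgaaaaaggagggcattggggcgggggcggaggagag
Timp1: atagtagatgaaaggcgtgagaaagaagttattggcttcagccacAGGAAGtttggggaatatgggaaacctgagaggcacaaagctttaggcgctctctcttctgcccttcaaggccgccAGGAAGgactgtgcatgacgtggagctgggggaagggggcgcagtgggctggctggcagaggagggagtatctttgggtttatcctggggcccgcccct

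The AP-1 letters lay 46 to 40 bases before the start of Mmp3 and 35 to 29 bases before that of Mmp13. None were found in the windows of Mmp14, Mmp23, Timp1, Timp2 or Timp3. The windows searched ran from 250 bases before to 50 bases after each start, longer than the stretches shown. Of the 8 promoters of 7 member genes in the promoter table, 2 held the AP-1 letters, against 7.81% of all 32851 promoters. The ETS core was in 5 of them, against 35.4%. The ETS letters appeared in the windows of Mmp3, Mmp13, Mmp14, Timp1 and Timp3, and a further match in Timp1 lay after the start, outside the stretch shown. Mmp2, Mmp9 and Mmp19 were not in the table. A match is a string of letters and no evidence that a factor was bound.

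Mmp2 was the most abundant of the 7 listed MMP transcripts in all 5 libraries. It encodes gelatinase A, which digests denatured collagen and basement membrane collagen, and lies at chr8:92827291-92853420 on the plus strand (GRCm38, GENCODE M21). Its level, over all retained cells, was 658 CPM at d0, then 366 (d3) and 951 (d5) post-fracture, and 283 (d3) and 379 (d5) post-polytrauma. The highest level was therefore at d5 post-fracture and the lowest at d3 post-polytrauma, and no pair of neighbouring levels had overlapping 95% Poisson intervals, which cover counting error only. Shares at 2000 UMIs per cell leave out the cells with fewer UMIs, which were 744 of 4632 at d0. On that scale 60.6% of cells at d0, 49.4% and 73.9% at d3 and d5 post-fracture, and 41.7% and 49.5% at d3 and d5 post-polytrauma held an Mmp2 UMI. Counts of transcripts from their 3' ends were not divided by gene length, because each transcript is counted once, and levels of different genes are compared on that scale. A level over a whole library mixes how many cells express a gene with how much each expresses, and these cannot be told apart in the sum.

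Mmp9, gelatinase B, was the rarest member. It lies at chr2:164940780-164955850 on the plus strand and is best known from neutrophils, macrophages and osteoclasts. The d0 library held 5 UMIs in all, or 0.287 CPM with an interval of 0.0931 to 0.669. The level was 3.20 CPM at d3 and 1.04 at d5 post-fracture, and 5.16 at d3 and 6.27 at d5 post-polytrauma, so both polytrauma libraries were above all others. At 2000 UMIs per cell, 0.0772% of cells at d0 and at most 1.08% in any library held an Mmp9 UMI. The sum of 7 hematopoietic markers was 42.4 CPM at d0, 25.1 and 14.3 at d3 and d5 post-fracture, and 101 and 19.6 at d3 and d5 post-polytrauma, an order unlike that of Mmp9. In the 802 cells with an Mmp9 UMI at d5 post-polytrauma that sum was 12.04 CPM, against 20.3 in the other cells, but the lower sum came from Lyz2 (2.24 against 10.96 CPM) and Cd74, and 5 of the 7 markers were slightly higher. Of these 5, Itgam was found in 1 Mmp9 cell, and 1 cell held 37 of the Tyrobp UMIs and 1 cell 5 of the Ptprc UMIs. Tyrobp was found in 0.623% of the Mmp9 cells and 0.566% of the rest, and Ptprc in 0.249% and 0.242%. Csf1r was found in 2.37% and 2.08%, and Cd68 in 3.741% and 2.415%. At d3 post-fracture the 207 cells with an Mmp9 UMI had 62.6 CPM of these markers against 23.4 in the rest, and 35.5 CPM of 4 neutrophil markers against 1.195. There 1 cell held 135 of the Lyz2 UMIs and 1 cell held 80 of the S100a8 UMIs, and Lyz2 was found in 2.42% of the Mmp9 cells and 2.81% of the rest, S100a8 in 3.86% and 0.669%. With cells of at least 2 hematopoietic markers left out, all calls of Mmp9 held. The Mmp9 cells of d5 post-polytrauma were also deeper, with a median of 19626.5 UMIs against 15480 in the rest. They had 466 CPM of 4 dividing markers (Mki67, Top2a, Cdk1, Ccnb1) against 359. This sum was higher in the Mmp9 cells of both d3 libraries too, but at d5 post-fracture it was 115 CPM in 34 such cells against 256.

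Mmp3, stromelysin, degrades proteoglycans and can activate other proMMPs. It lies at chr9:7445822-7455975 on the plus strand, on the same chromosome as Mmp13. Its level was 25.5 CPM at d0, 23.4 at d3 post-fracture and 25.9 at d3 post-polytrauma, 3 values with overlapping intervals at neighbouring places of the order. At d5 it differed by injury, with 84.5 CPM (82.0 to 87.0) post-fracture and 14.8 CPM (14.3 to 15.4) post-polytrauma. Few cells made it: at 2000 UMIs per cell the share was 2.88% at d0, 4.29% and 8.34% at d3 and d5 post-fracture, and 4.15% and 2.15% at d3 and d5 post-polytrauma. The 5% of cells with the most Mmp3 held 100% of its UMIs at d0, 84.65% and 72.1% at d3 and d5 post-fracture, and 79.6% and 94.0% at d3 and d5 post-polytrauma. These shares depend on how many cells held any Mmp3 UMI. Without the reduction those were 25.75% at d5 post-fracture and 6.51% at d5 post-polytrauma, at unlike depths. The shares therefore do not measure a difference in concentration between the injuries.

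Mmp13, the main interstitial collagenase of mice, is known from hypertrophic chondrocytes and osteoblasts of the growth plate and callus. It lies at chr9:7272514-7283331 on the plus strand. Its level was 15.4 CPM at d0, then 17.4 (d3) and 102 (d5, interval 99.0 to 105) post-fracture, and 6.99 (d3) and 18.1 (d5) post-polytrauma. The d5 post-fracture library stood 5.61-fold above the next, while d5 post-polytrauma, d3 post-fracture and d0 overlapped in that order. At 2000 UMIs per cell 0.334% of cells at d0, 1.55% and 9.32% at d3 and d5 post-fracture, and 0.523% and 1.91% at d3 and d5 post-polytrauma held an Mmp13 UMI. Its UMIs were concentrated in few cells. At d0 all 268 UMIs came from 21 cells, of which 1 held 152, so the d0 level rests largely on 1 cell and is 6.66 CPM without it. At d3 post-polytrauma 1 cell held 359 of the 722 UMIs, without which the level is 3.52 CPM, and at d5 post-fracture the highest cell held 354 of 5278.

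Mmp14, the membrane-anchored collagenase that activates proMMP2 at the cell surface together with TIMP2, lies at chr14:54431612-54445364 on the plus strand. It stood at 68.9 CPM at d0, then 122 (d3) and 525 (d5) post-fracture, and 105 (d3) and 335 (d5) post-polytrauma. Both d5 libraries were above both d3 libraries, and all 4 injured libraries were above d0. The share of cells with an Mmp14 UMI at 2000 UMIs per cell followed the same order, with 11.1% at d0, 22.1% and 60.2% at d3 and d5 post-fracture, and 20.8% and 48.8% at d3 and d5 post-polytrauma.

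Mmp19 and Mmp23 are less studied members. Mmp19, at chr10:128790910-128800824 on the plus strand, stood at 18.2 CPM at d0 and between 39.6 and 46.7 CPM in the 4 injured libraries, where 3 of the 4 levels had overlapping intervals with a neighbour. Mmp23, at chr4:155650655-155653384 on the minus strand, encodes a membrane-tethered enzyme without the hemopexin domain that most of the family carries. It stood at 61.7 CPM at d0, then 158 (d3) and 168 (d5) post-fracture, and 110 (d3) and 176 (d5) post-polytrauma. Both genes were therefore lowest before injury and varied little among the injured libraries compared with Mmp3, Mmp13 or Mmp14. Mmp19 overlaps Tmem198b on the opposite strand, which stood at 7.65 to 14.9 CPM.

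The inhibitors had unlike patterns. Timp1 encodes a secreted inhibitor that is weak against MMP14, and it lies at chrX:20870166-20874735 on the plus strand, inside Syn1 on the opposite strand, which stood at 0.5003 to 0.803 CPM. Timp1 was at 102 CPM at d0, then 2717 (d3) and 695 (d5) post-fracture, and 1959 (d3) and 1583 (d5) post-polytrauma. Uninjured cells were thus far below all injured cells, and d5 post-fracture was the lowest of the injured libraries. In the order of all genes by level, Timp1 was number 1293 at d0 and number 94 at d3 post-fracture. At 2000 UMIs per cell 10.1% of cells at d0, 93.4% and 56.1% at d3 and d5 post-fracture, and 88.1% and 79.5% at d3 and d5 post-polytrauma held a Timp1 UMI. Without this reduction the shares were 15.8% at d0 and between 95.6% and 97.7% in the injured libraries.

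Timp2, which both inhibits MMPs and helps MMP14 activate proMMP2, lies at chr11:118301069-118355740 on the minus strand. Its level was 596 CPM at d0, then 93.3 (d3) and 766 (d5) post-fracture, and 80.7 (d3) and 436 (d5) post-polytrauma. Both d3 libraries were low, while d5 post-fracture was 1.28-fold above and d5 post-polytrauma 1.37-fold below the uninjured level. At 2000 UMIs per cell, 57.0% of cells at d0, 19.5% and 17.2% at d3 post-fracture and post-polytrauma, and 71.9% and 55.0% at d5 in the same order held a Timp2 UMI.

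Timp3 binds to the matrix and also inhibits ADAM and ADAMTS proteases. It lies at chr10:86300372-86349506 on the plus strand, inside Syn3 on the opposite strand, which stood at 0.1401 to 4.53 CPM. Timp3 was at 568 CPM at d0, then 74.4 (d3) and 157 (d5) post-fracture, and 69.8 (d3) and 97.0 (d5) post-polytrauma, so the 4 injured libraries were all below the uninjured one. The share of cells with a Timp3 UMI at 2000 UMIs per cell was 55.6% at d0 and between 10.6% and 21.4% after injury. Timp2 and Timp3 were thus alike at d0 and d3 and apart at d5.

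Free RNA can give UMIs in droplets of cells that do not express a gene. The hematopoietic-like cells of d3 post-polytrauma, 106 cells with a median of 3786 UMIs against 15688 in the whole library, are not mesenchymal, although macrophages are known to make Timp1, Timp2, Mmp14 and Mmp19. At 2000 UMIs per cell, 8.05% of the 87 deep enough held an Mmp2 UMI and 1.15% a Timp3 UMI, against 41.7% and 10.6% of all cells of that library. None held Mmp3 or Mmp13, which allows a share of up to 4.15% each by the exact interval, so these genes are not resolved from background at d3 post-polytrauma by shares alone. Timp1 was found in 40.2% (29.9 to 51.3), below the 88.1% of all cells, while Timp2 and Mmp14, in 16.1% (9.09 to 25.5) and 12.6% (6.48 to 21.5), overlapped the shares of all cells there.

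**Figure D1:**
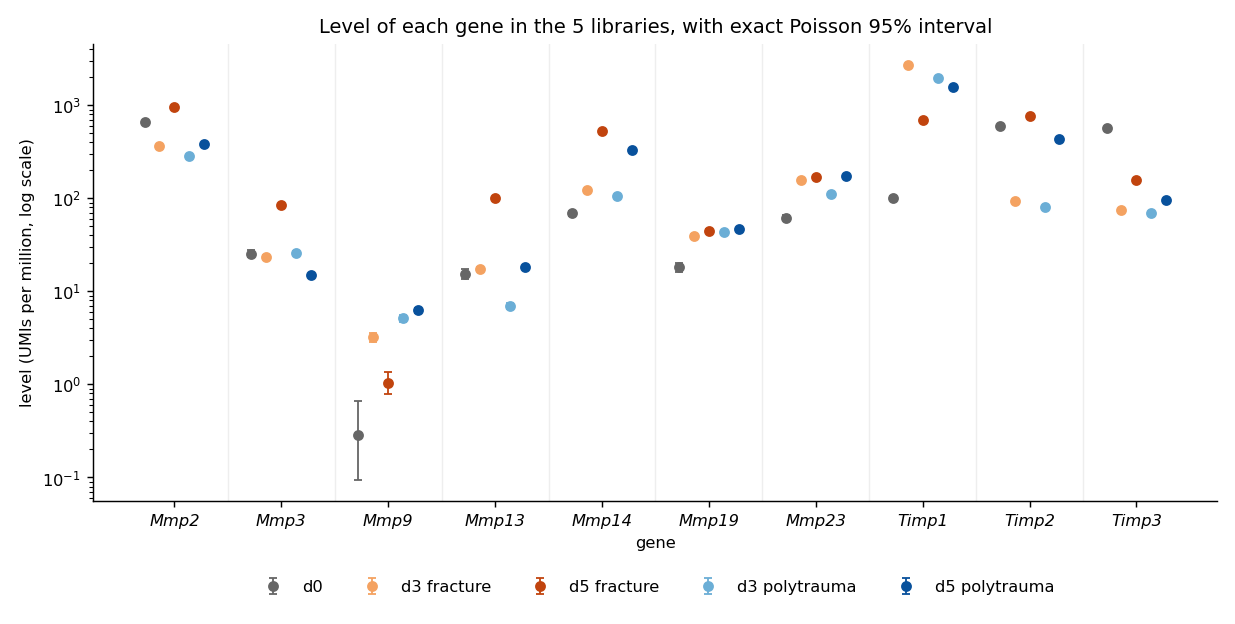
Levels of the 10 genes in the 5 libraries, as CPM over all retained cells on a log axis, with exact 95% Poisson intervals that cover counting error only. Timp1 is lowest at d0 (102 CPM) while Timp3 is highest there (568 CPM), and Mmp3 and Mmp13 stand out at d5 post-fracture (84.5 and 102 CPM).

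The first comparison is that of d3 with d0, the early response of these cells to injury. Differences are given as log2 ratios of CPM minus the median log2 ratio of all 12391 genes tested, and a gene is called past 2-fold. At d3 post-fracture, 5 of the 10 genes were called higher (19.4% of all tested genes were) and 2 lower (21.3%). Timp1 had a log2 difference of 5.12 (5.06 to 5.19), a 26.6-fold ratio of the CPM values, and Mmp9 of 3.87 (2.63 to 5.50), with the wide interval that 5 UMIs at d0 give. Mmp23, Mmp19 and Mmp14 followed at 1.75, 1.51 and 1.21. The genes called lower were Timp2 at −2.28 and Timp3 at −2.54, which in CPM were 6.38-fold and 7.64-fold below d0. At d3 post-polytrauma, again 5 were called higher (18.8% of tested genes) and 2 lower (21.0%). They were the same genes, with Timp1 at 4.66, Mmp9 at 4.57, Mmp19 at 1.64, Mmp23 at 1.23, Mmp14 at 1.004, Timp2 at −2.49 and Timp3 at −2.63. Both comparisons share the d0 library, so their likeness is no independent support. With the labels as deposited Timp2 was at 0.14 in the second comparison.

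Mmp14 at d3 lay close to the 2-fold line. The median gene itself differed by −0.39 between d3 post-fracture and d0 and by −0.40 between d3 post-polytrauma and d0, and without taking that median as 0 the Mmp14 differences were 0.82 and 0.61, no longer past 2-fold. In FAP/MP-like cells alone both Mmp14 calls were lost too, and Mmp23 at d3 post-polytrauma, at 0.84, was lost without centring. On that uncentred scale 12.4% of tested genes were called higher and 30.4% lower at d3 post-fracture, and 11.9% and 30.03% at d3 post-polytrauma, where 3 members were higher and 4 lower. Mmp2, Mmp3 and Mmp13 were not past 2-fold in either comparison on the centred scale, with −0.46, 0.27 and 0.57 post-fracture and −0.82, 0.42 and −0.74 post-polytrauma. Some settings put a few of them past it or turned their sign. Mmp13 at d3 post-fracture was at 1.65 without the cell that held the most of its UMIs in each library. With cells thinned to 2000 UMIs Mmp3 was at 1.17 and 1.07 and Mmp13 at 2.92 post-fracture and 0.72 post-polytrauma. In FAP/MP-like cells alone Mmp3 was higher post-fracture (1.48) and Mmp2 (−1.01) and Mmp13 (−2.95) lower post-polytrauma.

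From d3 to d5 post-fracture, 4 of the 10 genes were called higher (17.3% of tested genes) and 2 lower (17.7%). Of the genes called higher, Timp2 had the largest difference at 2.37, followed by Mmp13 at 1.88 (1.80 to 1.96), Mmp14 at 1.44 and Mmp3 at 1.18. Timp1 was lower by a log2 difference of −2.64 and Mmp9 by −2.29 (−2.73 to −1.87). Post-polytrauma, 2 genes were higher at d5 than at d3 (13.0% of tested genes), Timp2 at 1.93 and Mmp14 at 1.17, and 1 was lower (10.1%), Mmp3 at −1.31. Mmp3 was thus higher at d5 than at d3 post-fracture and lower post-polytrauma, but neither difference held in every setting. Post-fracture it was 0.37 with cells thinned to 2000 UMIs and 0.40 within FAP/MP-like cells alone, and post-polytrauma it was 0.54 within FAP/MP-like cells and −0.805 without centring. Mmp13 post-polytrauma, at 0.87, was not past 2-fold, although it was at 1.79 without the cell holding the most Mmp13 UMIs in each library. Timp1 at −0.81 was not past 2-fold. The median gene differed by 0.67 post-fracture and 0.50 post-polytrauma on the CPM scale. Without centring, 37.8% of tested genes were higher and 4.46% lower at d5 post-fracture, with 6 and 2 members, and 27.6% and 4.52% at d5 post-polytrauma, where 3 members were higher and none lower.

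**Figure D2:**
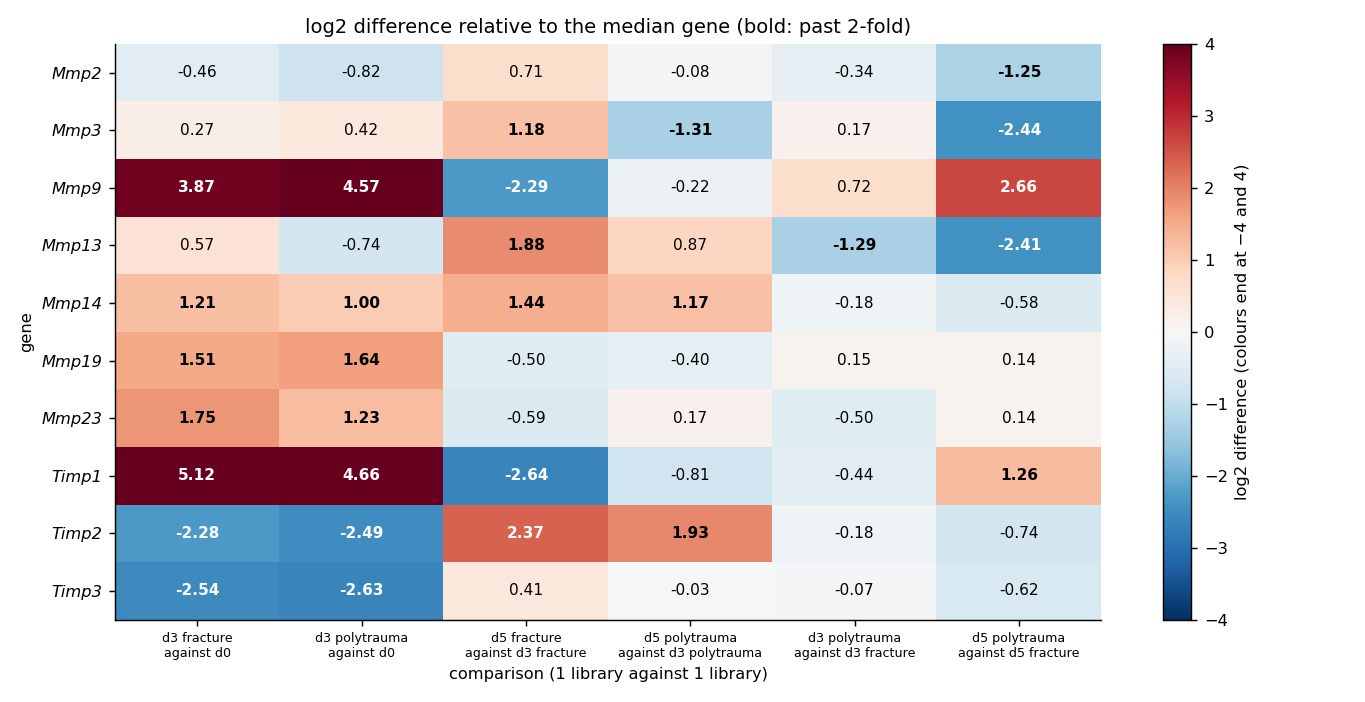
Log2 differences of the 10 genes (rows) in the 6 comparisons (columns), relative to the median tested gene, with colours that end at −4 and 4 and bold type past 2-fold. Timp1 is the highest value against d0 (5.12 at d3 post-fracture), and in d5 post-polytrauma against d5 post-fracture Mmp3 and Mmp13 stand at −2.44 and −2.41 while Mmp9 stands at 2.66.

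The comparison of polytrauma with fracture addresses what added muscle injury does to these cells. At d3 none of the 10 genes was called higher (2.80% of tested genes were) and 1 was lower (2.40%), Mmp13 at −1.29 (−1.42 to −1.16), or −2.15 without the cell holding the most of its UMIs in each library. The other genes lay between −0.50 for Mmp23 and 0.72 for Mmp9. Within FAP/MP-like cells alone, different clusters held most of the class at d3. There Mmp9 at 1.38 was past 2-fold higher, and Mmp13 at −3.79, Mmp3 at −1.32, Mmp2 at −1.08 and Mmp23 at −1.03 past 2-fold lower. The background shares above are over all cells, so these calls have no share of all genes beside them. At d5 the injuries differed in more of the family: 2 genes were called higher post-polytrauma (2.30% of tested genes) and 3 lower (9.25%). Mmp9 was higher at 2.66 (2.27 to 3.08) and Timp1 at 1.26 (1.25 to 1.28). Mmp3 was lower at −2.44 (−2.50 to −2.37), Mmp13 at −2.41 (−2.48 to −2.35) and Mmp2 at −1.25 (−1.27 to −1.24). Timp2, Timp3 and Mmp14 were at −0.74, −0.62 and −0.58, and Mmp19 and Mmp23 both at 0.14. The chondrocyte markers (Col2a1, Acan, Fgfr3, Sox9, Col9a1) also differed, with a sum of 2816 CPM at d5 post-fracture and 299.6 CPM at d5 post-polytrauma. With the chondrocyte-like cells left out all 5 calls held. These were 246 of the d5 post-fracture cells, while Acan was found in 73.2% of the 1360 cells there with fewer than 10 Mmp13 UMIs. That share is from unthinned counts, and the 1360 cells were not split by cluster, so they can include chondrocyte-like cells. How much chondrocyte gene expression remained without the chondrocyte-like cells, and its part in the differences, was not tested. Mmp2 was at −0.997 when genes of any level were tested. Within FAP/MP-like cells alone Mmp2, at −0.69, and Timp1, at 0.74, were no longer past 2-fold. With the labels as deposited, the values given for d3 post-polytrauma against d3 post-fracture are those of d5 against d3 post-fracture and the reverse, and likewise the values of d5 post-polytrauma against d5 post-fracture and of d5 against d3 post-polytrauma change places.

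The protease and inhibitor transcripts were also summed. The 7 MMPs together stood at 848 CPM at d0, then 730 (d3) and 1876 (d5) post-fracture, and 579 (d3) and 976 (d5) post-polytrauma. The 3 TIMPs together stood at 1266 CPM at d0, 2885 and 1618 at d3 and d5 post-fracture, and 2110 and 2116 at d3 and d5 post-polytrauma. TIMP UMIs per MMP UMI were 1.49 at d0, 3.95 and 0.862 at d3 and d5 post-fracture, and 3.64 and 2.17 at d3 and d5 post-polytrauma. Over all cells of a library, d5 post-fracture alone thus had more transcripts of the 7 MMPs than of the 3 TIMPs. Clusters differed in Timp1, however. Cluster 0, with 16.35% of the cells at d5 post-fracture and 57.3% at d5 post-polytrauma, had 1533 and 1915 CPM of Timp1. Cluster 2, with 60.4% and 21.9% of the cells, had 497 and 784 CPM. How far cell composition shapes the ratio was not tested. The inhibitor pool differed in kind as well: Timp1 made up 8.06% of it at d0, 94.2% and 92.9% at d3 post-fracture and post-polytrauma, and 43.0% and 74.8% at d5. Within the protease pool Mmp2 held 77.6% at d0 and 38.9% to 50.7% after injury, and Mmp14 held 8.13% at d0 and 28.0% and 34.3% at d5 post-fracture and post-polytrauma. Transcript sums are not protein or activity.

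**Figure D3:**
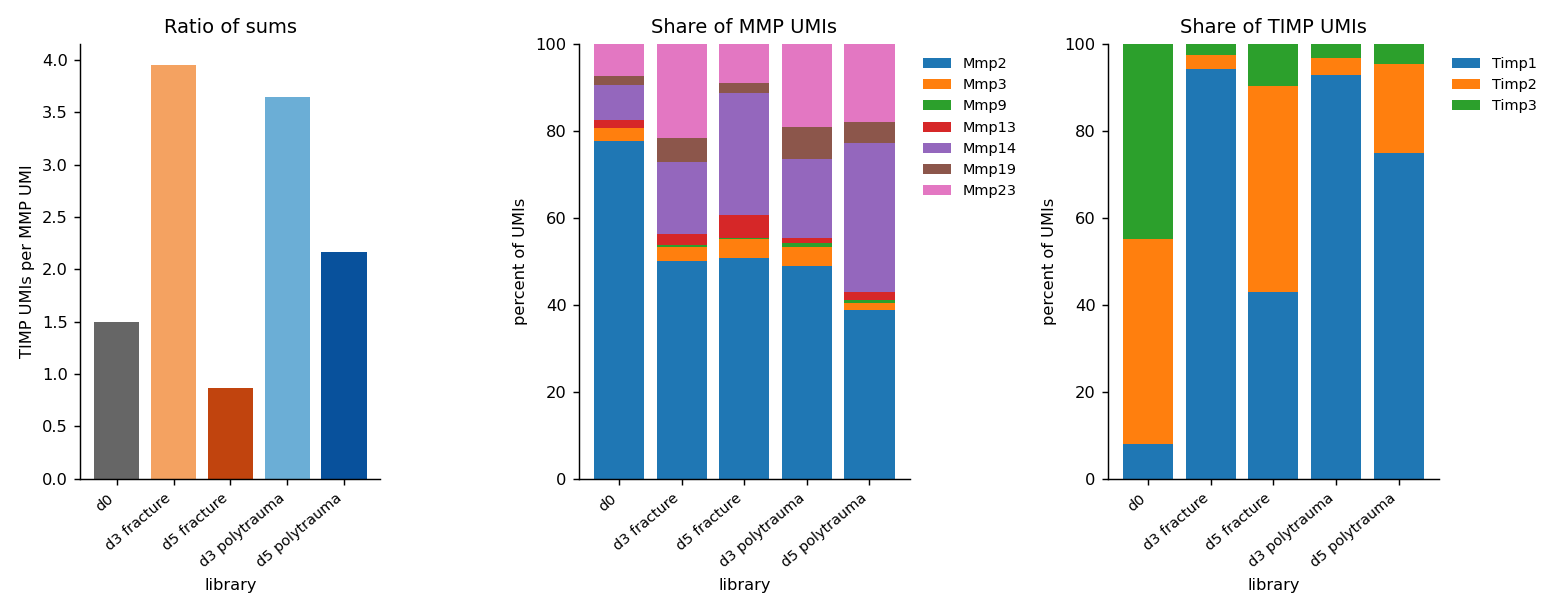
TIMP UMIs per MMP UMI in each library (left), and the percent of the MMP UMIs (middle) and of the TIMP UMIs (right) that each gene holds. The ratio is 0.862 at d5 post-fracture and above 1 in the other libraries, and Timp1 holds 94.2% of the TIMP UMIs at d3 post-fracture.

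Single cells often carried both sides. At 2000 UMIs per cell, at least 2 different MMPs were found in 17.8% of cells at d0, 31.7% and 64.6% at d3 and d5 post-fracture, and 24.8% and 44.7% at d3 and d5 post-polytrauma. Cells with an MMP and no TIMP were 12.3% at d0 and between 2.26% and 6.75% after injury. Of the cells with an Mmp14 UMI, 10.7% at d0 also held a Timp1 UMI, against 94.1% and 58.9% at d3 and d5 post-fracture and 87.8% and 77.9% at d3 and d5 post-polytrauma. These shares were close to the share of Timp1 in all cells of each library. Of the 134 cells with an Mmp13 UMI at d5 post-fracture, 73.1% held Timp1, against 56.1% of all cells there, while of the 220 such cells at d5 post-polytrauma 76.4% did, against 79.5%. Of the cells with an Mmp3 UMI 77.4% held Timp1 at d3 post-fracture and 67.3% at d5 post-polytrauma, below the 93.4% and 79.5% of all cells. The shares were closer to those of all cells at d0 (9.82% against 10.1%), d5 post-fracture (52.5% against 56.1%) and d3 post-polytrauma (86.2% against 88.1%).

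Clusters were computed on the merged libraries without the 10 genes and named from marker lists. The fibroblast list (Col1a1, Sparc, Col3a1, Col5a1, Postn) gave a name only where no other list qualified. Cluster 2, named FAP/MP-like, passed 5 of 5 fibroblast and 4 of 5 FAP/MP markers, and cluster 3 passed 4 of 5 and 3 of 5. The name FAP/MP-like therefore does not set these cells apart from fibroblasts. The dividing markers were not used for names. Clusters 0 and 10 passed 4 of 4 of them and clusters 1 and 4 passed 3 of 4, while clusters 2, 3, 5 and 7 passed 0. The FAP/MP-like class differed in its clusters between libraries: cluster 5 held 2527 of its cells at d0, cluster 3 most at d3 post-fracture (1624), cluster 4 most at d3 post-polytrauma (3147), and cluster 2 most at d5 post-fracture (886) and d5 post-polytrauma (2614). Within this class Timp1 stood at 55.5 CPM at d0, 2105 and 496 at d3 and d5 post-fracture, and 1810 and 795 at d3 and d5 post-polytrauma. Timp3 stood at 520 CPM at d0 and between 66.6 and 208 CPM after injury, and Mmp14 at 73.8 CPM at d0 and 548 and 332 at d5 post-fracture and post-polytrauma. The order of the libraries for Timp1 and Mmp14 in the class was that over all cells.

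Over all groups of at least 50 cells, Timp1 stood at 36.0 to 454 CPM in the d0 groups, where tenocyte-like cells were highest, and at 272 to 3226 CPM in the injured groups. Timp3 stood at 415 to 767 CPM in the d0 groups and at 21.6 to 464 CPM in the injured ones, where pericyte-like cells of d3 post-fracture were highest. Cluster 5, which held mostly d0 cells, also held 50 cells of d3 post-fracture. In these 50 cells Timp1 stood at 272 CPM against 59.3 in the d0 cells of the cluster, and Timp3 at 266 CPM against 415.

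Other classes had profiles of their own. Pericyte-like cells of d0 combined a high Timp3 of 624 CPM with a low Mmp2 of 66.6 and Timp2 of 174 CPM, against 745 and 683 CPM of Mmp2 and Timp2 in FAP/MP-like cells of d0. Tenocyte-like cells (cluster 7, led by Chad, Kera and Tnmd) had the highest Mmp13 of the named classes at d3, with 402 CPM post-fracture and 144 post-polytrauma, against 47.1 at d0. At d3 post-polytrauma 1 tenocyte-like cell held 359 of the 591 UMIs of its class, and without it the level was 56.7 CPM. Tenocyte-like cells held 61.3% of all Mmp13 UMIs at d3 post-fracture and 81.9% at d3 post-polytrauma, that cell included. Hematopoietic-like cells at d3 post-polytrauma held 9 Mmp9 UMIs, or 15.1 CPM (6.91 to 28.7), which is 1.69% of the Mmp9 UMIs of that library.

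**Figure D4:**
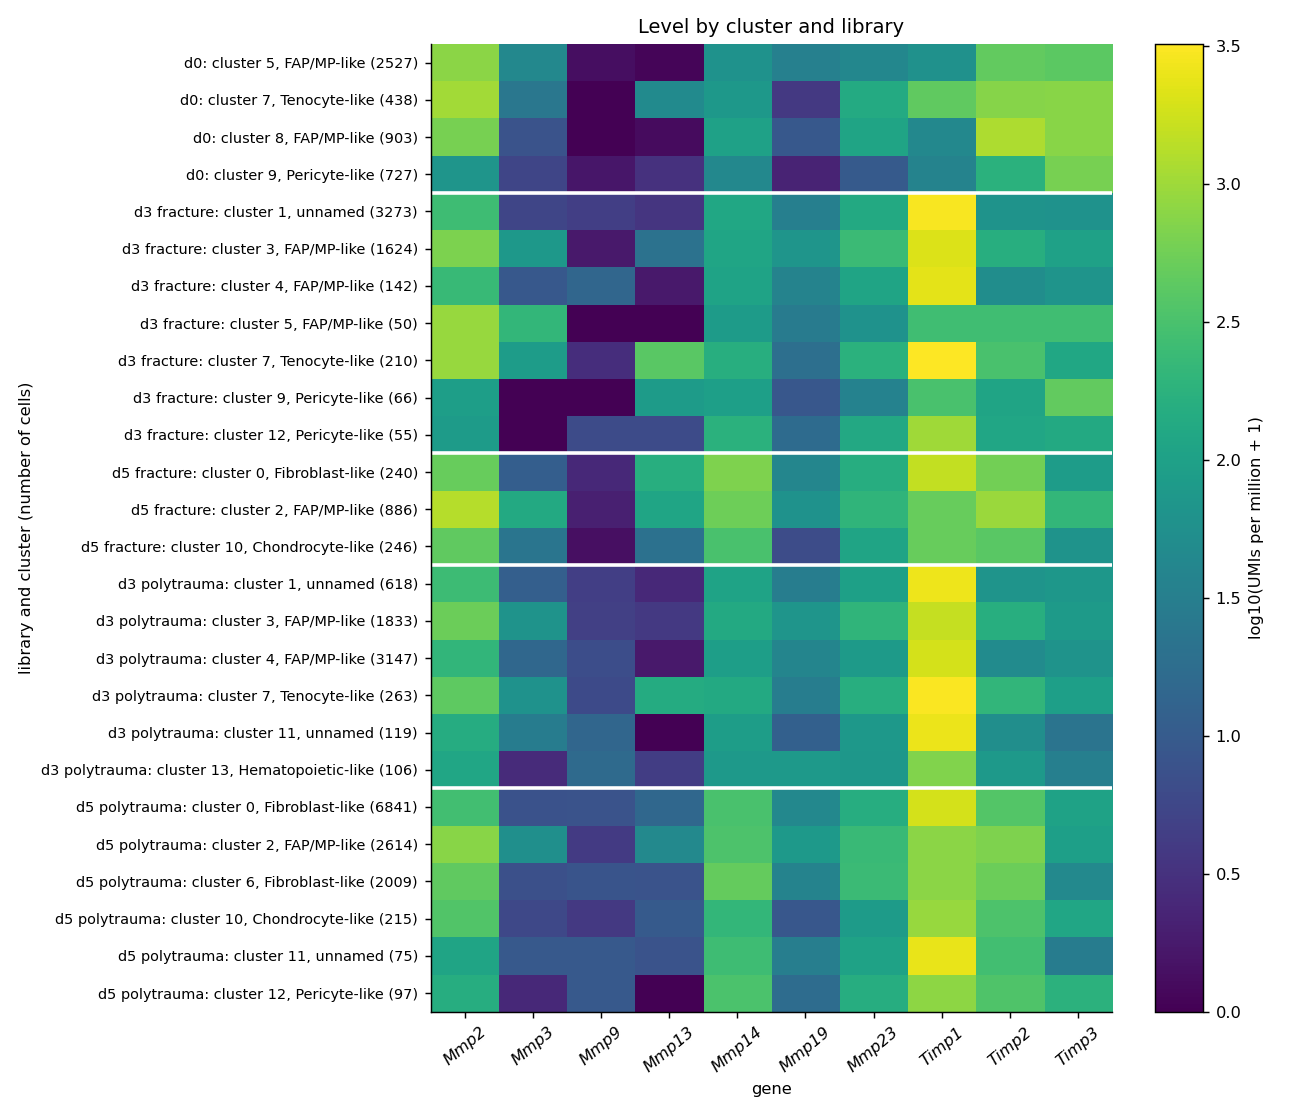
Levels of the 10 genes in each cluster of each library with at least 50 cells, coloured by log10(CPM + 1), with the number of cells in parentheses. Timp1 spans 36.0 to 454 CPM in the d0 groups and 272 to 3226 in the injured ones, and Mmp13 is highest in tenocyte-like cells at d3 post-fracture (402 CPM).

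The cells that held Mmp13 and Mmp3 differed by time. At d5 post-fracture cluster 2 (FAP/MP-like) held 64.9% of the Mmp13 UMIs with 60.4% of the cells. Cluster 0 (fibroblast-like, led by Lrrc15 and with Mki67 among its leading genes) held 30.7% with 16.35% of the cells. The chondrocyte-like cluster 10 held only 3.66% of the UMIs. The Mmp13 level was 159.7 CPM in cluster 0 and 113.5 CPM in cluster 2. The highest cell of the library lay in cluster 0 and held 354 of its 1621 Mmp13 UMIs. Without that cell the level of cluster 0 was 125 CPM. Fewer cells held an Mmp13 UMI in cluster 0 than in cluster 2. The shares were 22.5% against 32.51% in unthinned counts and 6.28% against 9.98% in thinned counts. The higher level of cluster 0 therefore does not mean that more of its cells held Mmp13. Chondrocyte-like cells had 19.1 CPM of Mmp13 at d5 post-fracture and 8.87 at d5 post-polytrauma, against 113 and 43.3 CPM in FAP/MP-like cells. Mmp3 came mostly from FAP/MP-like cells: cluster 5 held 80.0% of it at d0, cluster 3 72.4% and 52.0% at d3 post-fracture and post-polytrauma, and cluster 2 91.5% and 62.6% at d5. Most Mmp9 UMIs lay in cluster 1 at d3 post-fracture (76.9%, with 58.6% of the cells), cluster 4 at d3 post-polytrauma (67.4%, with 50.8%), cluster 2 at d5 post-fracture (59.3%, with 60.4%) and cluster 0 at d5 post-polytrauma (76.8%, with 57.3%).

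The injuries were then compared within clusters that both libraries shared, again relative to the median gene. At d3 Mmp13 was lower post-polytrauma in cluster 3 by −2.84 (−3.25 to −2.45) and in the tenocyte-like cluster 7 by −1.45 (−1.59 to −1.30). These values are −2.49 and −2.58 without the cell holding the most Mmp13 UMIs in each library of the cluster. In cluster 1 it was at −0.72, or −1.29 without such cells, and in cluster 4 at −0.01, where d3 post-fracture had 2 UMIs. Mmp3 at d3 differed by cluster, with 1.24 in cluster 1, 0.78 in cluster 4 (1.70 without the leading cells), −0.20 in cluster 3 and −0.50 in cluster 7. Mmp9 had both directions, with 2.34 (1.57 to 3.18) in cluster 3 and −1.22 in cluster 4, and Mmp2 was past 2-fold only in cluster 7, at −1.03. Timp1 at d3 lay between −0.37 and −0.03 in all 4 clusters.

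At d5 all members but Mmp23 and Timp3 kept the direction of the whole libraries in all 3 shared clusters, which were cluster 0, cluster 2 and the chondrocyte-like cluster 10. Mmp13 was at −3.39, −1.31 and −1.05 in this order of clusters. Without the cell holding the most Mmp13 UMIs in each library of the cluster, it was at −3.18, −1.29 and −1.23. Mmp3 was at −0.51, −1.22 and −2.13, or −0.17, −1.24 and −2.47 without such cells. Mmp9 was at 2.25 and 1.55 in clusters 0 and 2, or 2.62 and 1.98 without such cells. In cluster 10 it was at 2.89 (0.92 to 5.11), where it rests on 7 against 4 UMIs. Without such cells 0 against 2 UMIs remained, so its direction in cluster 10 rests on the leading cell of d5 post-polytrauma. Mmp2, at −0.70, −0.69 and −0.25, was past 2-fold in none of them although it was past 2-fold over all cells. Timp1 was at 0.44, 0.72 and 0.995. Timp3 had both directions, with 0.39, −1.08 and 0.97, against −0.62 over all cells. Of the cells in cluster 10, 20.7% carried a barcode shared with another library. Such barcodes were uneven between the libraries compared, with 11 among all retained cells of d5 post-fracture and 338 among those of d5 post-polytrauma. The differences within cluster 10 were not computed without these cells.

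**Figure D5:**
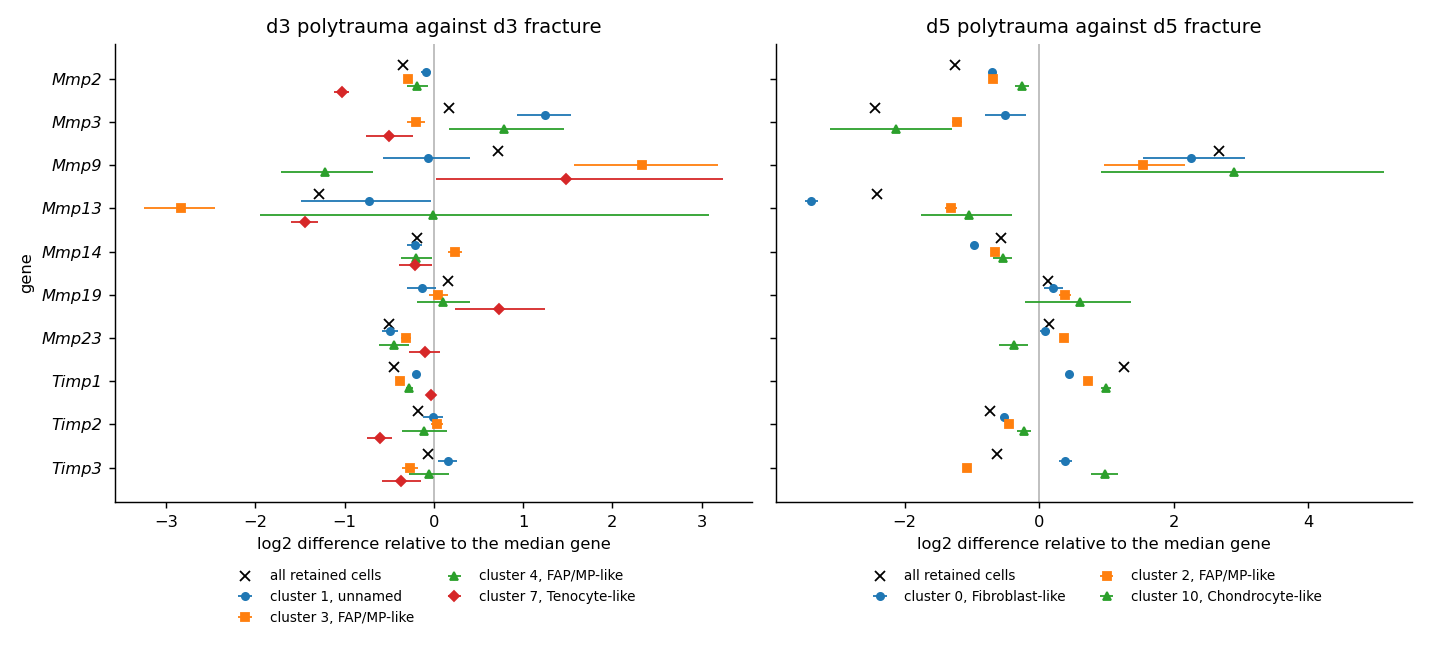
Log2 differences of post-polytrauma against post-fracture within clusters held by both libraries, at d3 and at d5, relative to the median gene (horizontal axis), with bars for 95% counting intervals and crosses for all retained cells. Mmp13 is below 0 in clusters 3 and 7 at d3 (−2.84 and −1.45) and in all 3 clusters at d5.

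The cells with the most Mmp3 and Mmp13 at d5 post-fracture differed in their other genes. The 112 cells with at least 10 Mmp3 UMIs held 82.7% of its UMIs. In them Ly6a, the surface marker Sca-1 of progenitors, stood at 1770 CPM against 430 in the rest, and Cd34 was found in 93.8% of the cells against 44.3%. All 5 FAP/MP markers were higher in these cells, which had a median of 38164 UMIs against 34484 in the rest. The 108 cells with at least 10 Mmp13 UMIs held 85.1% of its UMIs, with Ly6a at 180 CPM against 578 in the rest. The chondrocyte markers summed to 834 against 2995 CPM, mostly through Col2a1 at 145 against 1649, yet more of these cells held a UMI of Acan (90.7% against 73.2%), Sox9 (94.4% against 82.6%) and Col9a1 (57.4% against 43.2%), at a median of 40152 UMIs per cell against 34374. Ibsp, an osteoblast matrix gene that also led the chondrocyte-like cluster 10, was found in 11.1% (5.88 to 18.6) of them and 10.4% of the rest. Among them 1 cell held 697 of its UMIs. Of the other listed osteoblast genes, Sp7 was found in 7.41% of them against 13.4% of the rest, and Bglap, Bglap2 and Dmp1 in none of them.

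Tendon markers were also compared in cells with much Mmp13. At d5 post-fracture Tnmd, tenomodulin, was found in 48.1% of them against 33.5% of the rest, but at 72.9 CPM against 127. At d3 post-fracture the 37 cells with at least 10 Mmp13 UMIs had 375 CPM of Scx, Tnmd and Kera against 45.6 in the rest, and Tnmd was found in 70.3% of them against 13.6%. At d5 post-polytrauma the 85 such cells had 295 against 119 CPM of these markers. Of the 5 chondrocyte markers 4 were higher in these cells too, while Col2a1 was lower, at 3.42 against 78.6 CPM. Acan was found in 52.9% of them against 25.3%, Sox9 in 76.5% against 62.9% and Col9a1 in 14.1% against 5.75%. Their median depth was 15233 UMIs against 15753.5 in the rest. There Ibsp was found in 9.41% (4.15 to 17.7) of them and in 1.16% of the rest, and 1 cell held 169 of its UMIs. Sp7 was found in 3.53% (0.734 to 9.97) against 1.22%, Bglap2 in 1 of these cells, and Bglap and Dmp1 in none.

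Related proteases, inhibitors and activators were listed to set the members beside their family. Of 45 listed genes 31 were tested. At d3, 4 were higher and 10 lower post-fracture and 5 and 10 post-polytrauma, each against d0. Of the 9 ADAMTS genes, which cleave proteoglycans and procollagens and of which TIMP3 inhibits several, 6 were lower and none higher in either comparison. From d3 to d5, 4 were higher and 2 lower post-fracture and 3 and 4 post-polytrauma. Between injuries, 2 were higher and none lower post-polytrauma at d3, and none higher and 5 lower at d5. The background shares are those given for the same comparisons above.

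By a rule of size, Reck and Adamts1 are named. Reck, a membrane-anchored inhibitor of MMPs, stood at 27.6 CPM at d0, 2.57 and 13.7 at d3 and d5 post-fracture, and 3.31 and 3.70 at d3 and d5 post-polytrauma. Its log2 difference was −3.03 at d3 post-fracture against d0, 1.74 at d5 against d3 post-fracture and −1.81 at d5 post-polytrauma against d5 post-fracture. Reck was low at d3 like Timp2 but, unlike it, was still low at d5 post-polytrauma. Adamts1, an aggrecan-cleaving protease, stood at 391 CPM at d0, 143 and 296 at d3 and d5 post-fracture, and 110 and 135 at d3 and d5 post-polytrauma, and differed by −1.06 between the injuries at d5.

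The genes most like each member in pattern were found over 26 groups of cells (a cluster in a library), among 7459 genes with a mean of at least 10 CPM. The measure was Pearson's correlation of log2(CPM + 1), a description over groups that share libraries and depth. Mmp2 was most like Igf1 (0.95), Lpar1 and Gaa (both 0.92). Mmp14 was most like Dnajc1 (0.93), Timp1 most like Prdx2 (0.93) and Timp3 most like Dlgap4 and Lamb2 (both 0.94). The collagenase and the stromelysin had no gene so close: Mmp13 reached 0.78 with Fndc4 and Mmp3 reached 0.81 with Adh1. Among the members themselves, Mmp2 was the second gene for Mmp3 (0.79). Mmp19 was most like Plac8 (0.83), Mmp23 like C1qtnf6 (0.93) and Timp2 like Cebpd (0.86), while Mmp9 was below the minimum level.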

How the data were processed

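GFP+ cells of digested hindlimb muscle, without tendon and fat, were sequenced on the 10x Chromium 3' platform. The authors aligned reads to mm10 with Cell Ranger (3.1.0 in the matrix header) and deposited raw UMI counts per gene and barcode, without normalization. Their notes name Seurat 3.1.2. Values computed here start from these counts. Cells with 350 to 8000 genes, under 20% mitochondrial UMIs and at least 1000 UMIs were kept. The members, lists and rules were chosen with earlier results of these data known.

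UMIs were summed per library and scaled to CPM, with exact 95% Poisson intervals. PCR duplicates are merged by UMI, and intervals cover counting error only. Differences are log2 CPM ratios minus the median over genes with a mean of at least 1 CPM, with exact binomial intervals, and 3 counts stand for 0. Shares of cells used counts thinned to 2000 UMIs per cell. Cells with fewer UMIs were left out of them: 744 at d0, 225 and 30 at d3 and d5 post-fracture, and 83 and 424 at d3 and d5 post-polytrauma. Cells were clustered in scanpy 1.11.5 (igraph 0.11.9) from 2000 variable genes, 20 principal components, 20 neighbours and a resolution of 0.5, leaving out the members, related proteases and naming markers. A cluster was named from 3 or more listed markers, with the fibroblast list used only where no other list qualified. The tools were numpy 2.4.6, scipy 1.17.1 and pandas 2.3.3 under Python 3.11.15. Possible doublets (highest Scrublet scores at 0.8% per 1000 cells, 1888 cells) were kept, and left out as an alternative. The scripts were checked on simulated counts.

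All 10 members are named in every library. Related genes are named with a mean of at least 10 CPM and past 2-fold between injuries, and the genes of most like pattern are the leading ones by correlation. Alternatives were CPM without centring, other cell and gene minimums, thinned counts, leaving out shared barcodes, hematopoietic or chondrocyte-like cells, FAP/MP-like cells alone, leaving out the cell with the most UMIs of a member, and labels as deposited. The alternatives without chondrocyte-like cells and without the leading cell were chosen after seeing the data.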

Additional observations from a re-analysis of the deposited data

How the results depend on the processing

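Of 60 differences, 29 were past 2-fold. All 29 remained without shared barcodes, without cells with 2 or more hematopoietic markers, without chondrocyte-like cells and without possible doublets, and 28 with no UMI minimum, with no gene minimum and with cells thinned to 2000 UMIs. With a gene minimum of 5 CPM, where Mmp9 is not tested, 24 of 25 remained, and on CPM without centring 25 of 29. Without the cell holding the most UMIs of a member in each library, all calls of Mmp3, Mmp9 and Mmp13 remained and 2 of Mmp13 were gained. Gains under other settings were 13 with the conditions as deposited, 5 on CPM without centring, 11 in FAP/MP-like cells alone, 3 with thinned cells, 2 with no gene minimum and 2 without possible doublets. Shares of cells were higher in all 50 cases without thinning and at 4000 UMIs per cell.

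With the conditions as deposited 15 of 29 remained. The number of members past 2-fold was then 1 against 6 for d5 against d3 post-fracture, 5 against 3 for d5 against d3 post-polytrauma, 6 against 1 for post-polytrauma against post-fracture at d3 and 3 against 5 at d5. Directions turned for Timp2 at d3 post-polytrauma against d0 (0.14). They turned for d5 against d3 post-fracture in Mmp9 (0.72), Mmp13 (−1.29), Mmp14 (−0.18) and Timp2 (−0.18), and post-polytrauma in Mmp14 (−0.58) and Timp2 (−0.74). Between injuries they turned at d3 for Mmp13 (1.88) and at d5 for Mmp9 (−0.22), Mmp13 (0.87) and Timp1 (−0.81). These changes follow from exchanging the libraries.

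In FAP/MP-like cells alone 23 of 29 remained, 5 members against 3 were past 2-fold for d5 against d3 post-polytrauma, where Mmp3 turned (0.54), and 5 against 1 for the injuries at d3. Why the counts differ was not tested, and no share of all tested genes past 2-fold in this class is given beside them. No paired analysis was possible because each condition has 1 library. The d0 library has the fewest UMIs per cell, and with 5 Mmp9 UMIs the size of its difference from d0 is poorly known.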

Other observations

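Some other genes of these families, named after their values were seen, were rare but present. Timp4, the fourth inhibitor of mice, stood at 11.99 CPM at d0, 0.0901 and 0.251 at d3 and d5 post-fracture, and 0.348 and 0.0841 at d3 and d5 post-polytrauma. Mmp10, a stromelysin below the minimum level for a comparison, had no UMI at d0, 1.85 and 0.0193 CPM at d3 and d5 post-fracture, and 1.97 and 0.613 CPM at d3 and d5 post-polytrauma. Mmp12, macrophage elastase, also had no UMI at d0 and stood at 1.16 CPM at d3 post-fracture and 0.629 at d3 post-polytrauma. Adam12, a membrane protease of regenerating tissue, stood at 3.56 CPM at d0 and between 63.6 and 111 CPM in the injured libraries.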
